A study of Homo sapiens with 6 samples.

Results

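γH2AX peaks were examined along the interior of chromosome 1, the longest human chromosome, in DLD1 cells, an established human colorectal cancer line. A peak belonged to the interior when its midpoint lay at least 5 Mb from both ends of the chromosome as covered by the peak lists and outside 118 to 146 Mb, the stretch beside the centromere. The upper end was set by the highest chromosome 1 position in any list (247128932, hg18). This rule used position alone. It kept 1021 of the 12579 peaks in all 4 lists (8.12%), on 209 Mb of sequence.

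The study mapped γH2AX by chromatin immunoprecipitation and sequencing (ChIP-seq) with an antibody against H2AX phosphorylated at serine 139. The groups used here were UNG knockout cells (KO, UNG-/-) given pemetrexed, UNG wild-type cells (WT, UNG+/+) given pemetrexed, KO cells given cisplatin and WT cells given cisplatin. Each group had 1 library and 1 deposited peak list. Untreated KO and WT libraries were also part of the series and were not analysed here. All groups were the same cell line, and the sources used here do not give the doses, the treatment times, how UNG was knocked out, or whether the KO line was 1 clone.

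H2AX is a variant of histone H2A that is phosphorylated by the ATM, ATR and DNA-PK kinases on chromatin around DNA double strand breaks and stalled replication forks, and the modified region can reach far from the lesion itself. UNG is the DNA glycosylase that cuts uracil out of DNA as the opening step of base excision repair. Pemetrexed is an antifolate that inhibits thymidylate synthase, so that deoxyuridine nucleotides build up and uracil enters DNA during synthesis. Cisplatin forms platinum adducts and crosslinks between bases, mainly at guanines, which are handled mostly by other repair routes. The short arm of chromosome 1 is known to be gene-rich toward its end, while long stretches near the middle of the short arm and on the long arm are gene-poor.

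The interior held 364 KO pemetrexed peaks against 75 WT pemetrexed peaks, and 418 KO cisplatin peaks against 164 WT cisplatin peaks. Per Mb of interior this was 1.74 against 0.359 peaks after pemetrexed and 1.999 against 0.784 after cisplatin. The KO list was therefore the longer one after both drugs, and the WT pemetrexed list was the shortest of the 4. Peaks were 4.85 times as numerous in KO as in WT after pemetrexed (exact 95% interval 3.78 to 6.31) and 2.55 times after cisplatin (2.12 to 3.07). With peaks within 100 kb joined the ratios were 1.83 (1.35 to 2.49) and 1.89 (1.53 to 2.34), and they were 11.5 (7.95 to 17.2) and 3.93 (3.14 to 4.96) when peaks narrower than 600 bp were dropped. That cut lay above the WT pemetrexed median width of 585 bp. It kept 356 of 364 KO and 31 of 75 WT pemetrexed peaks, and 381 of 418 KO and 97 of 164 WT cisplatin peaks. Dropping a larger share of the WT lists raises the ratios by itself. As deposited, the pemetrexed ratio was 1.90 times the cisplatin ratio (exact 95% interval 1.39 to 2.63). With peaks closer than 100 kb joined into 1, that factor was 0.965 (0.665 to 1.41), which no longer excluded 1.

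Within each genotype the interior held fewer pemetrexed than cisplatin peaks. In KO cells there were 364 pemetrexed against 418 cisplatin peaks, a ratio of 0.871 (exact 95% interval 0.755 to 1.005) that did not exclude 1. It did exclude 1 with peaks joined within 10 kb (0.712, 0.608 to 0.834) or 100 kb (0.479, 0.384 to 0.595), with the ends and centromere trimmed further (0.824, 0.703 to 0.965) and without the window from 15 to 20 Mb (0.771, 0.662 to 0.897). In WT cells there were 75 against 164, a ratio of 0.457 (0.343 to 0.605). Over the whole lists the WT order was the same (924 against 1807), but the KO order was the other way. There KO had 5278 pemetrexed against 4570 cisplatin peaks, a ratio of 1.15 (1.11 to 1.20). The odds ratio of the interior against the rest of the series, pemetrexed over cisplatin, was 0.736 (0.634 to 0.854) in KO and 0.885 (0.656 to 1.19) in WT. With 1 library per group and no read depth in the files, all intervals cover counting error only, treat peaks as independent, and carry no replicate check. Where a list is longer, deeper sequencing cannot be told apart from more γH2AX, nor the knockout from any other difference between the libraries.

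**Figure D1:**
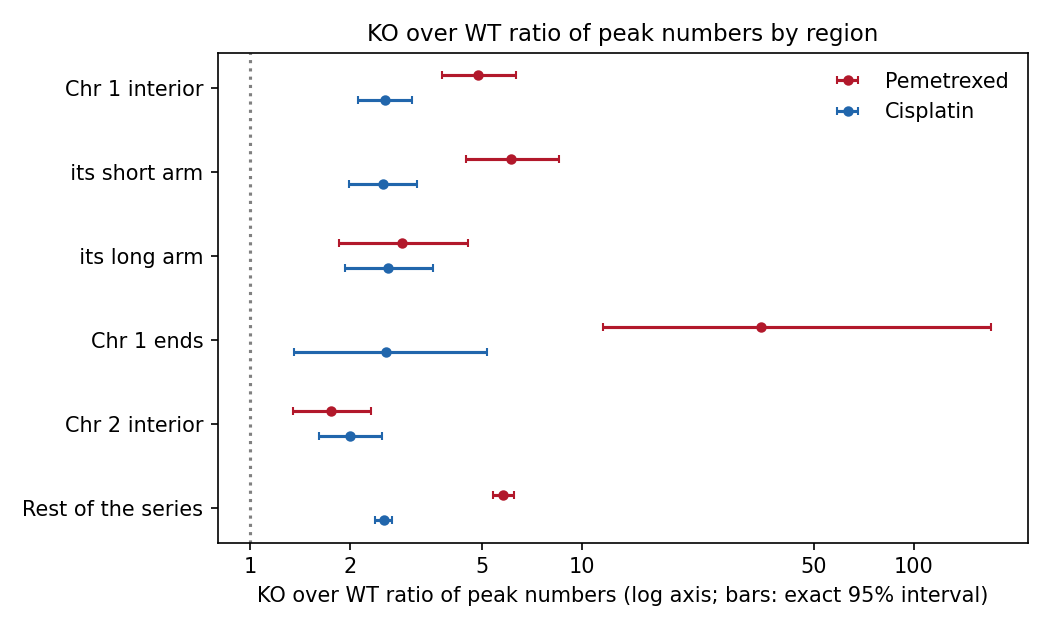
Ratio of KO to WT peak numbers on a log axis, with exact 95% intervals, after pemetrexed (red) and cisplatin (blue) for the interior of chromosome 1, each arm of that interior, the ends of chromosome 1, the chromosome 2 interior and the rest of the series. The pemetrexed ratio runs from 1.76 in the chromosome 2 interior to 34.7 at the chromosome 1 ends, while the cisplatin ratio stays between 2.01 and 2.61.

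Set against other parts of the genome, the interior of chromosome 1 took 6.90% of the KO pemetrexed list (exact 95% interval 6.23 to 7.61%) and 8.12% of the WT pemetrexed list (6.44 to 10.1%). The odds ratio of a KO rather than a WT pemetrexed peak lying there, against the rest of the series, was 0.839 (exact 95% interval 0.645 to 1.10). The rest of the series had a KO over WT ratio of 5.79 after pemetrexed, so a difference from it was not detectable. The interior took 9.15% of the KO cisplatin list and 9.08% of the WT cisplatin list, with an odds ratio of 1.01 (0.832 to 1.23).

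A difference was seen against the interior of chromosome 2, taken by a like rule with the stretch beside its centromere left out. There the lists held 153 KO pemetrexed against 87 WT pemetrexed peaks, a ratio of 1.76 (exact 95% interval 1.34 to 2.32). The pemetrexed ratio on chromosome 1 was 2.76 times as high (odds ratio, exact 95% interval 1.89 to 4.03). After cisplatin the chromosome 2 interior held 259 KO against 129 WT peaks, and the odds ratio between the chromosomes was 1.27 (0.951 to 1.69).

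The ends of chromosome 1 lay on the other side. The first and last 5 Mb together held 104 KO pemetrexed against 3 WT pemetrexed peaks (ratio 34.7, exact 95% interval 11.5 to 171), and 36 KO cisplatin against 14 WT cisplatin peaks. The first 5 Mb, at the tip of the short arm, had 103 of these KO pemetrexed peaks. The interior therefore took 77.6% of the chromosome 1 peaks in KO pemetrexed (exact 95% interval 73.6 to 81.3%), against 93.8% in WT pemetrexed (86.01 to 97.9%), and 91.5% in KO cisplatin (88.5 to 93.9%) against 91.1% in WT cisplatin (85.97 to 94.8%). The odds ratio of the interior against the ends, KO over WT, was 0.140 after pemetrexed (exact 95% interval 0.0277 to 0.440) and 0.991 after cisplatin (0.481 to 1.94). The bound at 5 Mb cut through no KO pemetrexed cluster, since the last KO pemetrexed peak before it was chr1:3633662-3635311 and the next was chr1:5991291-5992076. In the KO cisplatin list the peaks on either side of this bound were chr1:4898996-4899982 and chr1:5413236-5413877.

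The arms of the chromosome differed in the KO pemetrexed list more than in the other lists. The short arm part (113 Mb) held 281 of the 364 KO pemetrexed peaks, 46 of 75 WT pemetrexed peaks and 256 of 418 KO cisplatin peaks. On the long arm part (96.1 Mb) there were 83, 29 and 162 peaks in that order, and 62 of the 164 WT cisplatin peaks. The short arm thus took 77.2% of KO pemetrexed peaks (exact 95% interval 72.5 to 81.4%), against 61.3% of WT pemetrexed peaks (49.4 to 72.4%). Both cisplatin lists were close to the WT pemetrexed value, with 61.2% for KO cisplatin (56.4 to 65.9%) and 62.2% for WT cisplatin (54.3 to 69.6%).

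The short over long arm odds ratio, KO over WT, was 2.13 after pemetrexed (exact 95% interval 1.21 to 3.71) and 0.961 after cisplatin (0.649 to 1.41). The first was 2.22 times the second (Wald 95% interval 1.17 to 4.23). This comparison of arms was added after the counts had been seen. Between the drugs in KO cells, pemetrexed over cisplatin, the same odds ratio was 2.14 (1.55 to 2.97), and it was 1.73 (1.07 to 2.81) with peaks closer than 100 kb joined. The KO over WT odds ratio after pemetrexed no longer excluded 1 with such peaks joined (1.45, 0.743 to 2.82), and neither did the ratio of the odds ratios (1.60, 0.756 to 3.37). The same held with peaks of at least 600 bp alone, at 1.61 (0.651 to 3.76) and 1.74 (0.695 to 4.36).

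Peak numbers on the short arm were 6.11 times as high in KO as in WT after pemetrexed (exact 95% interval 4.46 to 8.54) and 2.51 times as high after cisplatin (1.99 to 3.19). On the long arm the ratios were 2.86 (1.86 to 4.53) and 2.61 (1.94 to 3.56). The long arm alone showed no detectable difference between the drugs, with a ratio of ratios of 1.10 (0.638 to 1.91). With peaks within 100 kb joined, the short arm ratios were 2.07 after pemetrexed (1.42 to 3.05) and 1.82 after cisplatin (1.39 to 2.41), and their ratio was 1.14 (0.708 to 1.84). On the long arm joining left 1.42 after pemetrexed (0.839 to 2.45), which did not exclude 1, while the cisplatin interval (1.43 to 2.82) did. Within KO cells, pemetrexed over cisplatin, the ratio was 1.10 on the short arm (0.923 to 1.31) and 0.512 on the long arm (0.388 to 0.672).

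**Figure D2:**
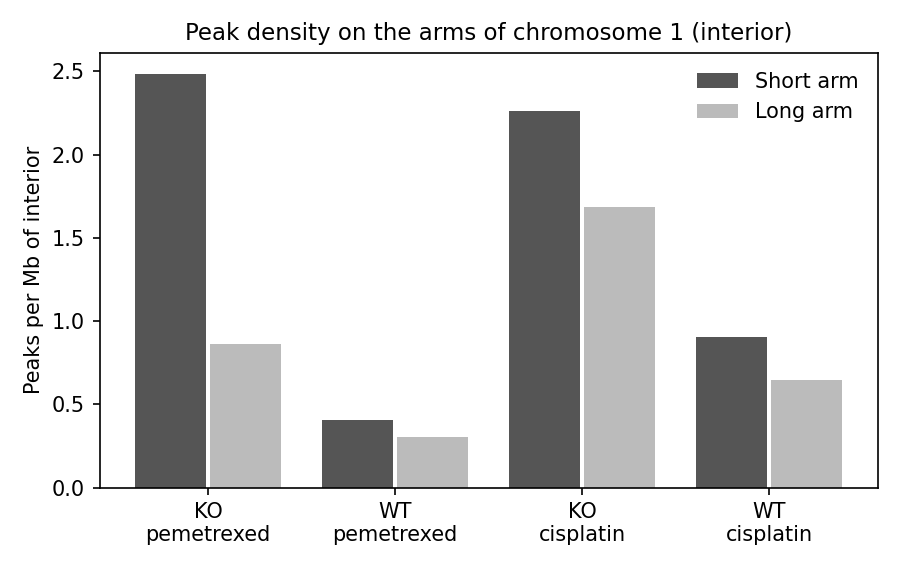
Peaks per Mb on the short arm (dark bars) and long arm (light bars) of the chromosome 1 interior in the 4 lists, 1 library each, with no error bars because there are no replicates. The KO pemetrexed list has 2.49 peaks per Mb on the short arm and 0.863 on the long arm, and the KO cisplatin list has 2.27 and 1.69.

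Along the chromosome, the 43 windows of 5 Mb (3 of them cut short by the bounds of the interior) were filled unevenly. The window from 15 to 20 Mb held the most KO pemetrexed peaks, with 57, against 5 WT pemetrexed, 20 KO cisplatin and 12 WT cisplatin peaks. Next came 5 to 10 Mb with 41 KO pemetrexed peaks (4 WT pemetrexed, 28 KO cisplatin, 14 WT cisplatin) and 30 to 35 Mb with 40 (2, 27 and 11 in that order). The only long arm window among the first 5 was 150 to 155 Mb, with 39 KO pemetrexed, 2 WT pemetrexed, 27 KO cisplatin and 15 WT cisplatin peaks. The last of the 5 was 20 to 25 Mb with 37, 6, 19 and 9.

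The stretch from 5 to 45 Mb, picked out after its counts were seen, therefore carried most of the KO pemetrexed peaks. In it lay 256 of 364 KO pemetrexed peaks (70.3%), against 25 of 75 WT pemetrexed peaks (33.3%), and 183 of 418 KO cisplatin peaks (43.8%) against 72 of 164 WT cisplatin peaks (43.9%). Inside it, 10 to 15 Mb broke the pattern, with 8 KO pemetrexed and 2 WT pemetrexed peaks beside 17 KO cisplatin and 11 WT cisplatin peaks.

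**Figure D3:**
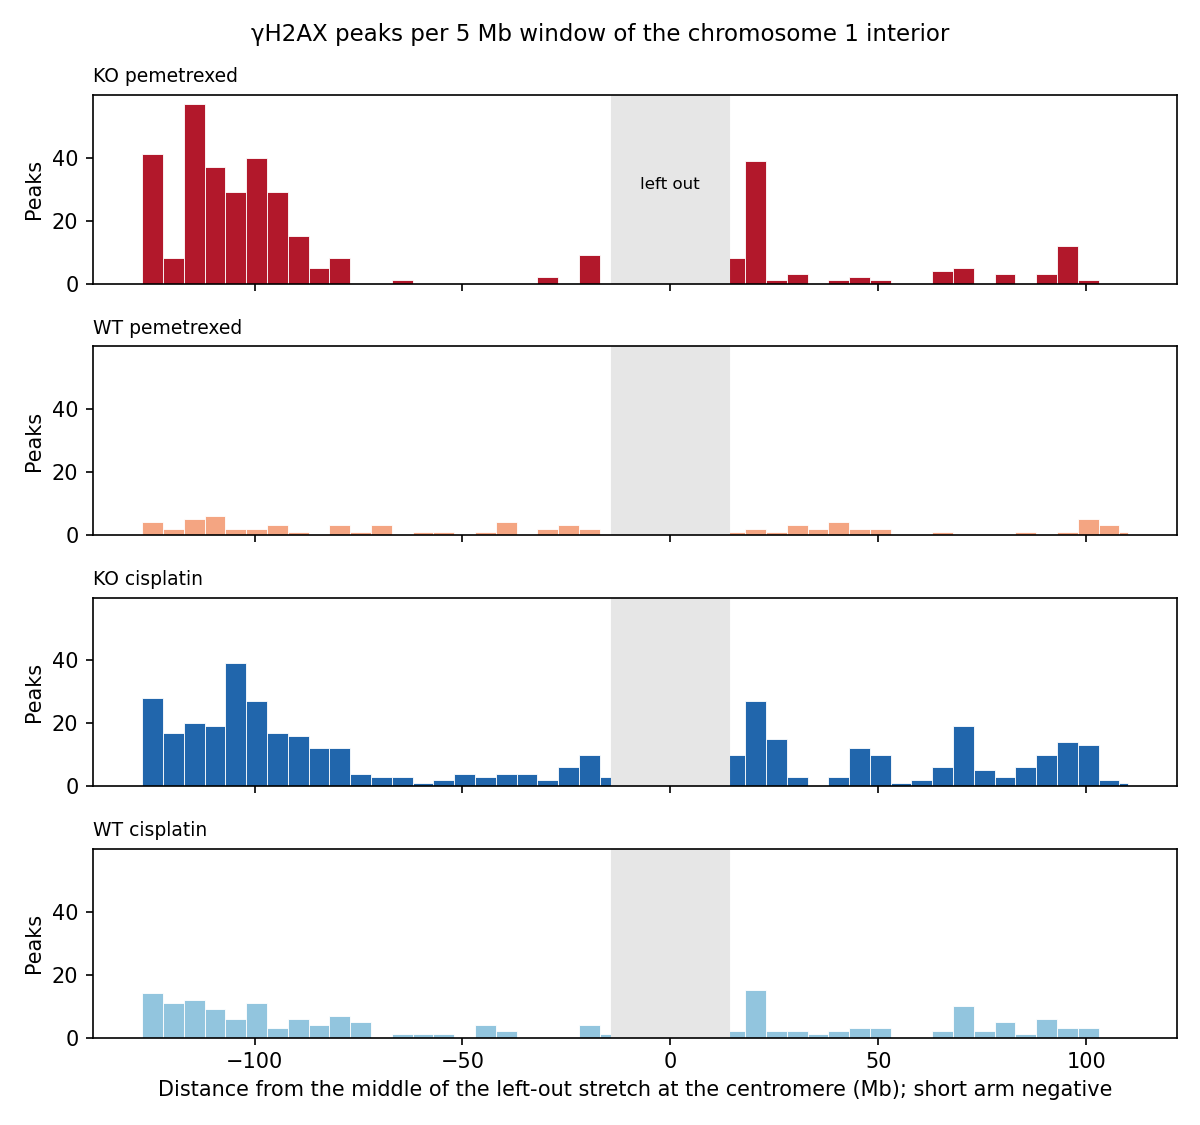
Number of peaks per 5 Mb window of the chromosome 1 interior in each of the 4 lists, on a common vertical axis, against distance in Mb from the middle of the left-out stretch (grey), with the short arm at negative distances. KO pemetrexed peaks crowd the outer short arm and 1 window of the long arm near the grey stretch (150 to 155 Mb), with 57 in the fullest window and none in 17 of the 43, while KO cisplatin peaks were missing from 1 window.

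The opposite of this crowding was seen in the middle of the short arm. The longest stretch of the interior with no KO pemetrexed peak ran for 35.0 Mb, from 65275355 to 100243935. The WT pemetrexed list had 7 of its 75 interior peaks there, the KO cisplatin list 21 of 418 and the WT cisplatin list 9 of 164. The stretch was 35.0 of the 209 Mb of the interior, so each of these lists was sparser there than over the interior as a whole. The next stretches without a KO pemetrexed peak were on the long arm. One of 14.6 Mb (181333260 to 195961800) held 2 WT pemetrexed, 8 KO cisplatin and 3 WT cisplatin peaks, and one of 10.9 Mb (212844936 to 223718926) held 1, 11 and 6. These 3 stretches were defined by having no KO pemetrexed peak, so that zero is no finding, and only the other lists' numbers are a measurement.

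A window was counted as different between a pair of lists when one had at least 2 times as many peaks as the other and both together had at least 5. For pemetrexed, 16 of 43 windows (37.2%) were higher in KO than in WT, where the same rule picked 28.3% of the 608 windows of the whole genome, and 2 windows (4.65%) were higher in WT, against 2.80% genome-wide. Those 608 windows took in chromosome ends and centromeres, which the interior leaves out, so the genome-wide shares are not for a like set of windows. For cisplatin, 19 windows (44.2%) were higher in KO, against 42.1% genome-wide, and 0 were higher in WT, against 1.32%. With counts divided by the length of each list, 7 windows (16.3%, genome-wide 14.1%) were higher in KO after pemetrexed and 5 (11.6%, genome-wide 9.05%) after cisplatin. On that scale 4 windows (9.30%, genome-wide 11.3%) were higher in WT after pemetrexed and 3 (6.98%, genome-wide 8.55%) after cisplatin.

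Between the drugs in KO cells, 1 window (2.33%, genome-wide 7.07%) was higher after pemetrexed, the one from 15 to 20 Mb. Another 11 windows (25.6%, genome-wide 24.3%) were higher after cisplatin. In WT cells, 2 windows (4.65%, genome-wide 2.96%) were higher after pemetrexed and 14 (32.6%, genome-wide 22.7%) after cisplatin. With counts divided by list length, 1 window (2.33%, genome-wide 4.93%) was higher after pemetrexed in KO cells and 11 (25.6%, genome-wide 25%) after cisplatin, and in WT cells 4 (9.30%, genome-wide 7.40%) and 9 (20.9%, genome-wide 12.5%). The long arm window from 155 to 160 Mb, next to the one rich in KO pemetrexed peaks, was among those higher after cisplatin in KO cells, with 1 pemetrexed against 15 cisplatin peaks.

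Over the 40 full windows of 5 Mb, the counts of the KO pemetrexed list followed those of both cisplatin lists, with Spearman's rho of 0.81 against KO cisplatin and 0.80 against WT cisplatin. The cisplatin lists followed each other to the same degree (0.79). The WT pemetrexed counts followed the others less closely, at 0.31 against KO pemetrexed, 0.28 against KO cisplatin and 0.22 against WT cisplatin, with at most 6 peaks in a window. The windows are neighbours on 1 chromosome and share its gene content, base composition and mappability, so these values are descriptions.

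At a finer scale the KO pemetrexed peaks filled few places. Of 210 windows of 1 Mb, 70 held a KO pemetrexed peak, 57 a WT pemetrexed peak, 135 a KO cisplatin peak and 96 a WT cisplatin peak. Although the KO lists were of similar length, 10 windows were enough for 50% of the KO pemetrexed peaks, whereas the KO cisplatin list needed 31. The WT pemetrexed list needed 20 and the WT cisplatin list 27. These counts are of the interior alone and have no genome-wide value beside them. The fullest windows were 16000001 to 17000000 and 154000001 to 155000000, where KO pemetrexed had 24 peaks each and WT pemetrexed 1 each. They held 4 and 16 KO cisplatin peaks and 4 and 2 WT cisplatin peaks, in the order in which they are named. In the window 21000001 to 22000000 there were 14 KO pemetrexed, 0 WT pemetrexed, 0 KO cisplatin and 3 WT cisplatin peaks.

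Neighbouring peaks of a list were gathered into runs, in which each peak starts at most 100 kb after the end of the one before. A neighbour within 100 kb was found for 289 of 364 KO pemetrexed peaks (79.4%, exact 95% interval 74.9 to 83.4%), against 11 of 75 WT pemetrexed peaks (14.7%, 7.56 to 24.7%). After cisplatin it was found for 242 of 418 KO peaks (57.9%, 53.0 to 62.7%) and 44 of 164 WT peaks (26.8%, 20.2 to 34.3%). Over the whole lists these shares were 88.4%, 12.6%, 57.1% and 30.0% in the same order, so the KO pemetrexed value of the interior was below that of its list. Among the KO lists pemetrexed had the higher share both in the interior and over the whole lists. The lists differ in length. In the interior there were 364 KO pemetrexed and 418 KO cisplatin peaks, and over the whole series 5278 and 4570. The part of length in these shares was not tested.

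Runs of 5 or more peaks numbered 19 in the KO pemetrexed list and 10 in the KO cisplatin list, and the WT pemetrexed and WT cisplatin lists had 0. Such runs took in 207 KO pemetrexed peaks (56.9%) and 57 KO cisplatin peaks (13.6%). Runs of 10 or more occurred 7 times, all in the KO pemetrexed list, and held 133 peaks (36.5%). By number of peaks, the longest run had 26 in the KO pemetrexed list, 3 in the WT pemetrexed list, 7 in the KO cisplatin list and 4 in the WT cisplatin list. Runs were gathered in the interior alone, so these counts and shares have no whole-list value beside them.

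**Figure D4:**
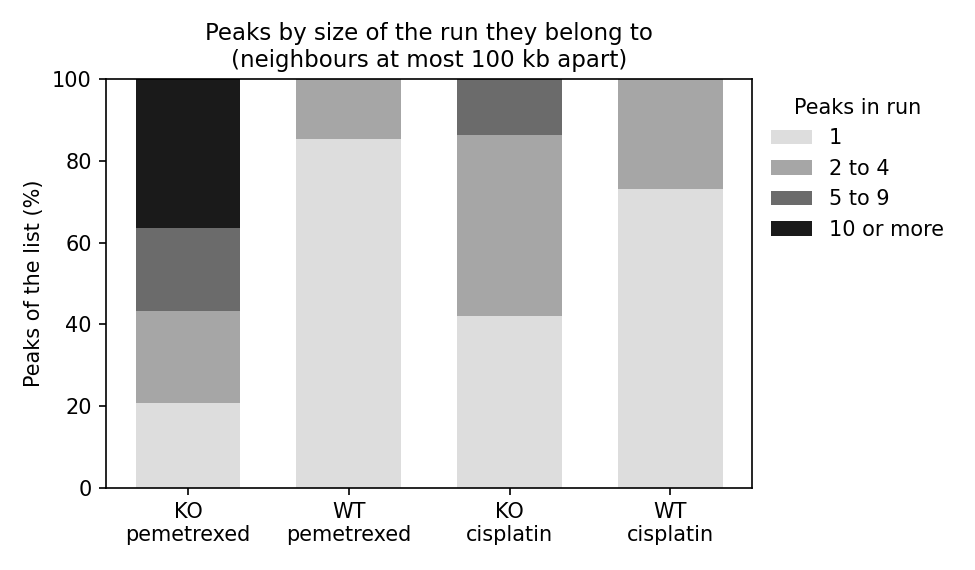
Share of the peaks of each list (per cent, vertical axis) that lie alone or in runs of 2 to 4, 5 to 9 and 10 or more peaks, with neighbours at most 100 kb apart. Single peaks make up 20.6% of the peaks in KO pemetrexed, 85.3% in WT pemetrexed, 42.1% in KO cisplatin and 73.2% in WT cisplatin.

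The run with the most KO pemetrexed peaks was on the long arm, at chr1:153856085-154618825. Its 26 peaks covered 38.7 kb of 763 kb (5.07%), with a median gap of 20.6 kb. The same span held 1 WT pemetrexed peak, 9 KO cisplatin peaks and 2 WT cisplatin peaks. A KO cisplatin run of 6 peaks, chr1:154356246-154473515, lay inside it. The KO cisplatin run with the most peaks, 7 at chr1:154945955-155150107, began 327 kb beyond its end, and the other lists had 0 peaks there. A KO cisplatin run of 5 peaks (chr1:154615781-154798603) started just inside the end of the run of 26, and its span overlapped that of a run of 3 KO pemetrexed peaks (chr1:154726289-154880529).

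The next runs of KO pemetrexed peaks were on the outer short arm. One of 24 peaks at chr1:15632272-16023225 was denser, with 11.2% of its 391 kb covered, a median gap of 4.43 kb and 8 peaks of 2 kb or more. It contained 0 WT pemetrexed peaks, 1 KO cisplatin peak and 0 WT cisplatin peaks. Another of 22 peaks at chr1:5991291-6582655 overlapped a KO cisplatin run and held 1 WT pemetrexed, 7 KO cisplatin and 3 WT cisplatin peaks. The run at chr1:36359760-36620565 packed 19 peaks into 261 kb and covered 11.7% of it, with 0 WT pemetrexed, 3 KO cisplatin and 0 WT cisplatin peaks. The last of the 5, at chr1:9726450-10225341, had 16 peaks beside 0 WT pemetrexed, 2 KO cisplatin and 1 WT cisplatin peak.

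The WT pemetrexed list had no run of this kind. By number its longest was 3 peaks on the long arm, at chr1:230459677-230460290, chr1:230463719-230464314 and chr1:230487179-230487803, with widths of 613, 595 and 624 bp. No other list had a peak in that span. A WT cisplatin run of 4 peaks, as many as any in that list, had widths of 609 to 730 bp at chr1:9541162-9673030, and 1 KO pemetrexed peak lay within it.

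Peaks were also wider in the KO pemetrexed list. Widths had a median of 1012.5 bp in KO pemetrexed (interquartile range 858 to 1525), against 585 bp (545.5 to 627.5) in WT pemetrexed. It was 814.5 bp (702.5 to 951) in KO cisplatin, against 614 bp (577 to 716) in WT cisplatin. The widths of the pemetrexed lists overlapped only in part, since the widest WT pemetrexed peak (899 bp) was narrower than the median KO pemetrexed peak. Together with the numbers, this gave 496 kb covered in KO pemetrexed against 44.8 kb in WT pemetrexed, a ratio of 11.1, and 363 kb in KO cisplatin against 109 kb in WT cisplatin, a ratio of 3.32. Between the drugs in KO cells, pemetrexed covered 1.37 times as many bases as cisplatin with fewer peaks. Read depth is unknown for these lists. Its part in peak widths, in covered bases and in the counts of wide peaks was not tested.

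Peaks of 2 kb or more numbered 54 in KO pemetrexed (14.8%, exact 95% interval 11.3 to 18.9%) and 0 in WT pemetrexed (upper bound 4.80%). After cisplatin they numbered 3 in KO (0.718%, 0.148 to 2.08%) and 0 in WT (upper bound 2.22%). The share in KO pemetrexed was lower in the interior than over the whole list, where it was 22.6%. At the ends of chromosome 1, 50 of the 104 KO pemetrexed peaks were this wide, and their median width was 1890.5 bp. Width went with crowding in the KO pemetrexed list. The 289 peaks with a neighbour within 100 kb had a median width of 1093 bp and 51 of them reached 2 kb (17.6%, 13.4 to 22.5%). The 75 peaks without one had a median of 916 bp and 3 reached 2 kb (4%, 0.833 to 11.2%). The medians of the other lists went the same way. With and without a neighbour they were 829 and 779.5 bp in KO cisplatin, 655.5 and 606.5 bp in WT cisplatin, and 595 and 584 bp in WT pemetrexed. On the arms the medians were nearly equal, at 1004 bp on the short arm and 1030.0 bp on the long arm, with 16.4% (12.2 to 21.2%) and 9.64% (4.25 to 18.1%) of peaks at 2 kb or more.

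**Figure D5:**
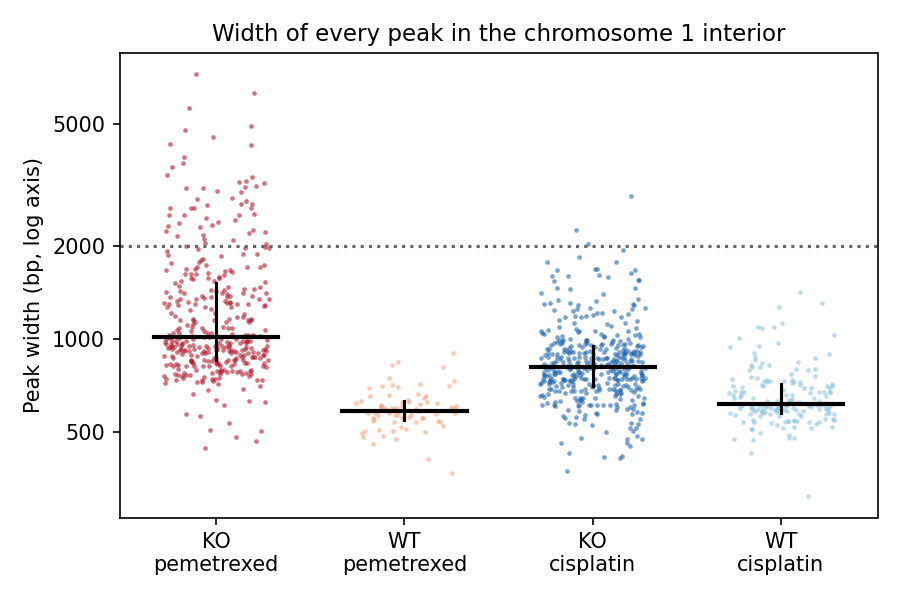
Width in bp (log axis) of every interior peak in the 4 lists, 1 point per peak, with the median as a horizontal bar, the interquartile range as a vertical bar and a dotted line at 2 kb. In the KO pemetrexed list 54 peaks reach the line, against 0 in WT pemetrexed, 3 in KO cisplatin and 0 in WT cisplatin.

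The 5 widest KO pemetrexed peaks all lay on the outer short arm. They spanned 7263 bp (chr1:6248807-6256070), 6323 bp (chr1:15933277-15939600), 5625 bp (chr1:16316734-16322359), 4912 bp (chr1:16272839-16277751) and 4794 bp (chr1:6488921-6493715). None of the 5 was met by a peak of another list, though a WT pemetrexed peak lay 5.96 kb from the widest and a WT cisplatin peak 0.636 kb from the peak of 4912 bp. The widest WT pemetrexed peaks were 899 bp at chr1:94326626-94327525, 845 bp at chr1:10523721-10524566, 826 bp at chr1:16343149-16343975, 811 bp at chr1:166990587-166991398 and 746 bp at chr1:112076500-112077246. The first of these sat inside the 35.0 Mb stretch without KO pemetrexed peaks, 5916 kb from the nearest one.

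After cisplatin the widest KO peaks were 2913 bp at chr1:43797140-43800053, 2266 bp at chr1:148797217-148799483, 2037 bp at chr1:11972335-11974372, 1952 bp at chr1:27770905-27772857 and 1846 bp at chr1:22119927-22121773. The first belonged to a run of 6 KO cisplatin peaks. In WT cells the widest cisplatin peaks were 1423 bp at chr1:20883835-20885258, 1315 bp at chr1:46669019-46670334, 1275 bp at chr1:32986272-32987547, 1130.0 bp at chr1:41748056-41749186 and 1095 bp at chr1:199412339-199413434. None of these 10 cisplatin peaks was met by a peak of another list.

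Few positions were marked in more than 1 list. The 1021 peaks made up 991 separate regions, of which 963 had a peak in 1 list, 28 in 2 lists (2.83%) and 0 in 3 or more. Over all chromosomes 11 of 12088 regions had a peak in 3 or more lists, so 0 of 991 is no trait of the interior. There 3.65% of regions had a peak in at least 2 lists, so the share of the interior lay near the background. No WT pemetrexed peak met a KO pemetrexed peak at the minimum overlap of 1 bp (0 of 75, exact upper bound 4.80%), where the whole list had 1.42%. Seen from the other list, 0 of 364 KO pemetrexed peaks met one (upper bound 1.01%), against 0.247% for the whole list. The nearest KO pemetrexed peak was a median of 391 kb from a WT pemetrexed peak, and 4 WT pemetrexed peaks (5.33%) had one within 10 kb. At this number of peaks the interior could not be told apart from the whole lists.

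For cisplatin, 5 KO peaks (1.20%, exact 95% interval 0.390 to 2.77%; whole list 0.701%) met 5 WT peaks (3.05%, 0.997 to 6.97%; whole list 1.77%). The widest of these 5 regions was 1206 bp at chr1:31152280-31153486. The others were chr1:11624288-11625320, chr1:14447505-14448378, chr1:52395997-52397005 and chr1:153243016-153244084. In each of them 1 KO peak overlapped 1 WT peak. Both drugs in WT cells shared no position, with 0 of 75 pemetrexed and 0 of 164 cisplatin peaks (upper bounds 4.80% and 2.22%), where the whole lists had 1.09% and 0.554%.

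The KO lists shared 18 regions, more than any other pair of lists. A KO cisplatin peak was met by 18 of 364 KO pemetrexed peaks (4.95%, exact 95% interval 2.96 to 7.70%), where 6.24% did over the whole list. A KO pemetrexed peak was met by 20 of 418 KO cisplatin peaks (4.78%, 2.95 to 7.29%), where 7.32% did over the whole list. On the short arm there were 15 of the shared regions and on the long arm 3. The 18 KO pemetrexed peaks concerned had a median width of 1418.5 bp, against 997.5 bp for the other 346. A KO cisplatin peak was met by 4 of 54 KO pemetrexed peaks of 2 kb or more (7.41%, 2.06 to 17.9%). Of the narrower ones 14 of 310 met one (4.52%, 2.49 to 7.46%). Whole-list shares were not counted by width, and the part of width in the overlap was not tested.

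The widest shared region of the KO lists was chr1:154370543-154375617, inside the long arm run of 26 peaks, where a KO pemetrexed peak of 4300.0 bp overlapped a KO cisplatin peak of 901 bp. The next was chr1:32955922-32959458, with peaks of 3276 bp after pemetrexed and 736 bp after cisplatin. The region chr1:20924543-20927065 was a KO pemetrexed peak of 2522 bp that contained a KO cisplatin peak of 910.0 bp. At chr1:16253006-16255451 a pemetrexed peak of 2445 bp contained a cisplatin peak of 1297 bp. The region chr1:26959719-26961927 joined a pemetrexed peak of 1133 bp to a pair of cisplatin peaks of 1258 and 649 bp. In the first 4 of these the pemetrexed peak was the wider one.

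Across drug and genotype at once, overlap with KO pemetrexed was found for 4 of 164 WT cisplatin peaks (2.44%, exact 95% interval 0.668 to 6.13%; whole list 3.99%) and overlap with KO cisplatin for 1 of 75 WT pemetrexed peaks (1.33%, 0.0338 to 7.21%; whole list 1.20%). The last was the only shared region of the interior that held a WT pemetrexed peak, at chr1:17162214-17162955, where a WT pemetrexed peak of 555 bp lay within a KO cisplatin peak of 741 bp.

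A KO cisplatin peak lay within 100 kb of 241 KO pemetrexed peaks (66.2%), overlaps included, where the share over the whole list was 77.2%. Without the overlapping peaks the number was 223 (61.3%). A KO pemetrexed peak lay within 100 kb of 165 KO cisplatin peaks (39.5%, whole list 45.6%), and of 145 (34.7%) without the overlapping ones. The KO pemetrexed share was thus the higher of the pair both in the interior and over the whole lists. Within 100 kb, 20 of the 75 WT pemetrexed peaks had a KO pemetrexed peak (26.7%, whole list 20.1%) and 35 had a KO cisplatin peak (46.7%, whole list 35.6%).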

How the data were processed

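ChIP-seq for γH2AX was done on DLD1 cells, with 6 groups of 1 library, and 4 drug-treated libraries have peak lists. The submitters' processing notes name Bowtie, with no version, MACS 1.4 and the build hg18. The sources used here do not give the control library, threshold or filters, and the read depth is unknown. The deposited peak lists give chromosome, start and end, with no height, score, p-value or count. Positions are printed as deposited, in hg18, and starts may count from 0 or from 1. No genome or gene table of that build was used, so no peak is assigned to a gene or shown with its sequence.

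Groups came from the sample titles. Peaks were chosen by midpoint, counted, joined and intersected with Python 3.11.15, pandas 2.3.3 and SciPy 1.17.1, after a check on simulated peaks. Ratios of counts have exact (Clopper-Pearson) 95% intervals, comparisons of ratios use conditional odds ratios with exact intervals (a Wald interval for the ratio of arm odds ratios), and no p-value was computed because each group has 1 library. The region, the lists and the comparisons were chosen with earlier results of these data known. Regions were named by rule: the 5 widest peaks per list, the 5 windows and the 5 runs with most KO pemetrexed peaks, the 5 widest regions shared by a pair and the 3 longest stretches without a KO pemetrexed peak. Runs and shared regions outside that rule were chosen after their values were seen. Alternatives joined peaks, set a minimum width of 600 bp, moved the bounds, left out 1 window, split the arms, and changed the overlap and window rules.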

Additional observations from a re-analysis of the deposited data

Results flagged for a closer look

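In the interior of chromosome 1 the ratio of KO to WT peaks was 1.90 times as large after pemetrexed as after cisplatin (exact 95% interval 1.39 to 2.63), a difference between groups under the same contrast. With peaks within 100 kb joined it was 0.965 (0.665 to 1.41). On the short arm the factor was 2.43 (1.63 to 3.67), and 1.14 (0.708 to 1.84) with peaks joined. On the long arm it was 1.10 (0.638 to 1.91), and 0.713 (0.377 to 1.36) with peaks joined. Read depth, which could move all of these, is unknown for the 4 libraries, and its part in the result was not tested.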

How the results depend on the processing

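Alternatives gave 94 values for 28 results. Of these, 54 stayed inside the reported interval and kept whether 1 was excluded (for window shares, within 1.5 times). Another 27 moved, 7 no longer excluded 1, 5 newly excluded 1 (all for pemetrexed over cisplatin in KO) and 1 reversed. The reversed value, the ratio of ratios with peaks within 100 kb joined (0.965, 0.665 to 1.41), did not exclude 1 either. A reversal was counted only where the reported interval excluded 1. Elsewhere some values crossed 1 and count among those kept or moved. With peaks joined, the long arm ratio of ratios went from 1.10 to 0.962 (10 kb) and 0.713 (100 kb). The interior odds ratio after pemetrexed went from 0.839 to 1.33 (100 kb), and pemetrexed over cisplatin in KO from 0.871 to 1.10 (short arm). The joining and width alternatives for the arms and for shares of lists were chosen after seeing the data. No paired analysis was possible because no group had a second library. The causes were not tested.

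With peaks within 10 kb joined, KO over WT after pemetrexed was 3.72 and pemetrexed over cisplatin in KO 0.712. Joined within 100 kb, KO over WT was 1.83 after pemetrexed and 1.89 after cisplatin, and pemetrexed over cisplatin in KO was 0.479. The ratio of ratios was then 0.965 (0.665 to 1.41), which did not exclude 1, and the odds ratio of the interior after pemetrexed was 1.33. The arm odds ratio, KO over WT after pemetrexed, was then 1.45 and its ratio to cisplatin 1.60, neither excluding 1. On the short arm KO over WT was then 2.07 after pemetrexed and 1.82 after cisplatin, with a ratio of 1.14 that did not exclude 1, and on the long arm it was 1.42 after pemetrexed, which did not exclude 1 either. With peaks of at least 600 bp (356 KO and 31 WT pemetrexed peaks), KO over WT was 11.5 after pemetrexed and 3.93 after cisplatin, pemetrexed over cisplatin in WT 0.320, the ratio of ratios 2.92, the arm odds ratio 1.61 and its ratio to cisplatin 1.74, neither excluding 1. Pemetrexed over cisplatin in KO was 0.824 with the ends and centromere trimmed further, 0.771 without the window from 15 to 20 Mb, 1.10 on the short arm and 0.512 on the long arm. On the long arm KO over WT after pemetrexed was 2.86 and the ratio of ratios 1.10.

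With a tolerance of 10 kb, shared peaks made up 5.33% (KO and WT pemetrexed), 11.6% (KO and WT cisplatin) and 19.0% (drugs in KO), and with a reciprocal overlap of 50% the drugs in KO shared 2.47%. Whole-list shares were not counted under these 2 rules. In 1 Mb windows, the share past 2-fold was 11.4% for KO over WT pemetrexed, 14.8% for KO over WT cisplatin, 7.14% for pemetrexed over cisplatin in KO, 9.05% for the reverse, and 2.38% for cisplatin over pemetrexed in WT. In 10 Mb windows it was 69.6% for KO over WT cisplatin, 0% for pemetrexed over cisplatin in KO and 47.8% for the reverse. Genome-wide shares were counted for 5 Mb windows alone. Whether the 1 Mb and 10 Mb shares differ from the whole genome was therefore not tested. With counts divided by list length it was 16.3% for KO over WT pemetrexed, 11.6% for KO over WT cisplatin and 20.9% for cisplatin over pemetrexed in WT.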
